A study of Rattus norvegicus with 18 samples.

Results

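Med8 encodes a subunit of Mediator, the protein complex that carries signals from DNA-bound transcription factors to RNA polymerase II. The study assembled full-length transcripts of rat hippocampus from long reads, and 4 of its 28268 isoforms belong to Med8 in its list of conserved open reading frames that the gene annotation lacks, which holds 27 isoforms of 19 genes. These 4 isoforms were looked up by identifier in every table of isoform levels, and all 4 had a row in each. They are named here by the length of their long read, as Med8 2141 nt, Med8 1510 nt, Med8 1398 nt and Med8 1353 nt. Other Med8 transcripts that the study may have assembled are not analysed here, so a share below is a share of these 4 isoforms together and not of all Med8 RNA. The 4 isoforms were selected on some of the data described: the study drew its list from isoforms that a classifier had called translationally active, and that classifier read the levels and ratios of each isoform in the ribosome fractions. Values in the fractions are therefore given without a test, whereas the classifier did not read the dissected layers of the hippocampus, which were tested. Med8 was nonetheless taken up for description with earlier results of all these libraries known, so its p-values in the layers are not free of that choice.

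Levels were measured by short-read sequencing in 12 libraries, 2 for each of 6 groups. All came from Sprague Dawley rats, 4 weeks of age by the sample labels, and the hippocampal slices were from males. Whole hippocampus, the somata layer of CA1 and the neuropil layer of CA1 came from slices, with the layers cut apart by hand. The ribosome-free, monosome and polysome fractions came from whole brain lysate spun through a sucrose gradient. The somata layer holds the packed cell bodies of the pyramidal neurons, and the neuropil layer holds dendrites, axons and synapses. Both layers also hold glia and interneurons, and neither was checked against cell type markers here. An mRNA that carries no ribosome stays near the top of a gradient, one with a single ribosome sediments as a monosome, and one with several sediments as a polysome, so the fractions sort RNA by ribosome load.

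Within Mediator, MED8 sits in the head module, the part that contacts the polymerase, and it is present in cells of all tissues. One gene can give several mRNA isoforms through alternative promoters, splicing and polyadenylation sites. Isoforms can differ in the protein they encode, and those that differ in their untranslated ends can differ in where the RNA travels in a neuron and how often it is translated.

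Each level is in TPM, the portion of a library's transcripts that RSEM assigned to an isoform after correction for length, on a scale whose total is the same in every library. Where a read matches more than 1 isoform RSEM shares it out by estimate, so the values of the Med8 isoforms in a library depend on each other, and a level of 0 is an estimate rather than a count of 0 reads. TPM keep no read depth, so the depth of these libraries is unknown and no counting interval was computed. The labels do not say whether the 2 replicates of a group came from separate animals, so p-values measure the spread between these libraries, which may be technical. Across 20393 isoforms, the somata libraries correlated with each other at r = 0.843 and the neuropil libraries at r = 0.765 on the log2(TPM + 1) scale. Neuropil replicate 2 was closer to the somata libraries (r = 0.802 and 0.814) than to neuropil replicate 1, whose r with them was 0.753 and 0.752. These correlations run across isoforms, which are not independent replicates.

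Med8 2141 nt was the most abundant of the 4 isoforms in 12 of 12 libraries. Its level was 45.57 and 49.36 TPM in hippocampus, 37.85 and 41.76 TPM in somata, and 27.82 and 35.86 TPM in neuropil. In brain it was 26.54 and 25.3 TPM in the ribosome-free fraction, 52.35 and 54.74 TPM in monosomes, and 35.27 and 30.07 TPM in polysomes. The lowest library was thus at 25.3, the median at 36.9 and the highest at 54.74 TPM. Its group means exceeded those of 73.3% to 85.6% of the isoforms above 0 in the same group. Its replicates differed by less than the median isoform in all 6 groups. On the log2(TPM + 1) scale the difference between them was 0.063 in monosomes, the closest pair, and 0.36 in neuropil, the widest, against medians over all isoforms of 0.29 and 0.60.

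Med8 1353 nt was second in 10 of the 12 libraries. It was listed at 0 and 1.25 TPM in somata and reached 17.4 and 10.12 TPM in neuropil. Both neuropil libraries lay above both somata libraries. Whole hippocampus, which contains both layers, was at 9.17 and 6.53 TPM, between the values of the layers, although it was measured in a separate table. That order did not hold for Med8 2141 nt, where both hippocampus libraries were above every somata and neuropil library. For Med8 1353 nt the ribosome-free fraction was at 4.78 and 8.1 TPM, monosomes at 16.81 and 15 TPM, and polysomes at 16.3 and 17.73 TPM. Both ribosome-bound fractions were above the ribosome-free fraction in each library, and the monosome and polysome values overlapped.

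Med8 1510 nt had the widest replicates of the 4 isoforms, with a mean difference over the groups of 1.53 on the log2(TPM + 1) scale against 0.16 for Med8 2141 nt. It was at 2.14 and 13.33 TPM in hippocampus, 15.21 and 0.14 TPM in somata, and 16.23 and 5.13 TPM in neuropil. The replicate difference in somata, 3.83 on that scale, was larger than that of 97.8% of isoforms. In the brain fractions this isoform was listed at 0 in 5 of 6 libraries, with 2.23 TPM in polysome replicate 2 alone. It was the second isoform in 2 of the 12 libraries, hippocampus replicate 2 and somata replicate 1.

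Med8 1398 nt had the lowest maximum of the 4 isoforms. It was at 2.07 and 2.4 TPM in hippocampus, 6.19 and 0 TPM in somata, and listed at 0 in both neuropil libraries. In brain it was listed at 0 in both ribosome-free libraries, at 3.95 and 2.26 TPM in monosomes and at 2.45 and 3.61 TPM in polysomes. It was listed at 0 in 5 of the 12 libraries in all, as was Med8 1510 nt, whereas Med8 1353 nt was at 0 in 1 library and Med8 2141 nt in 0.

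**Figure D1:**
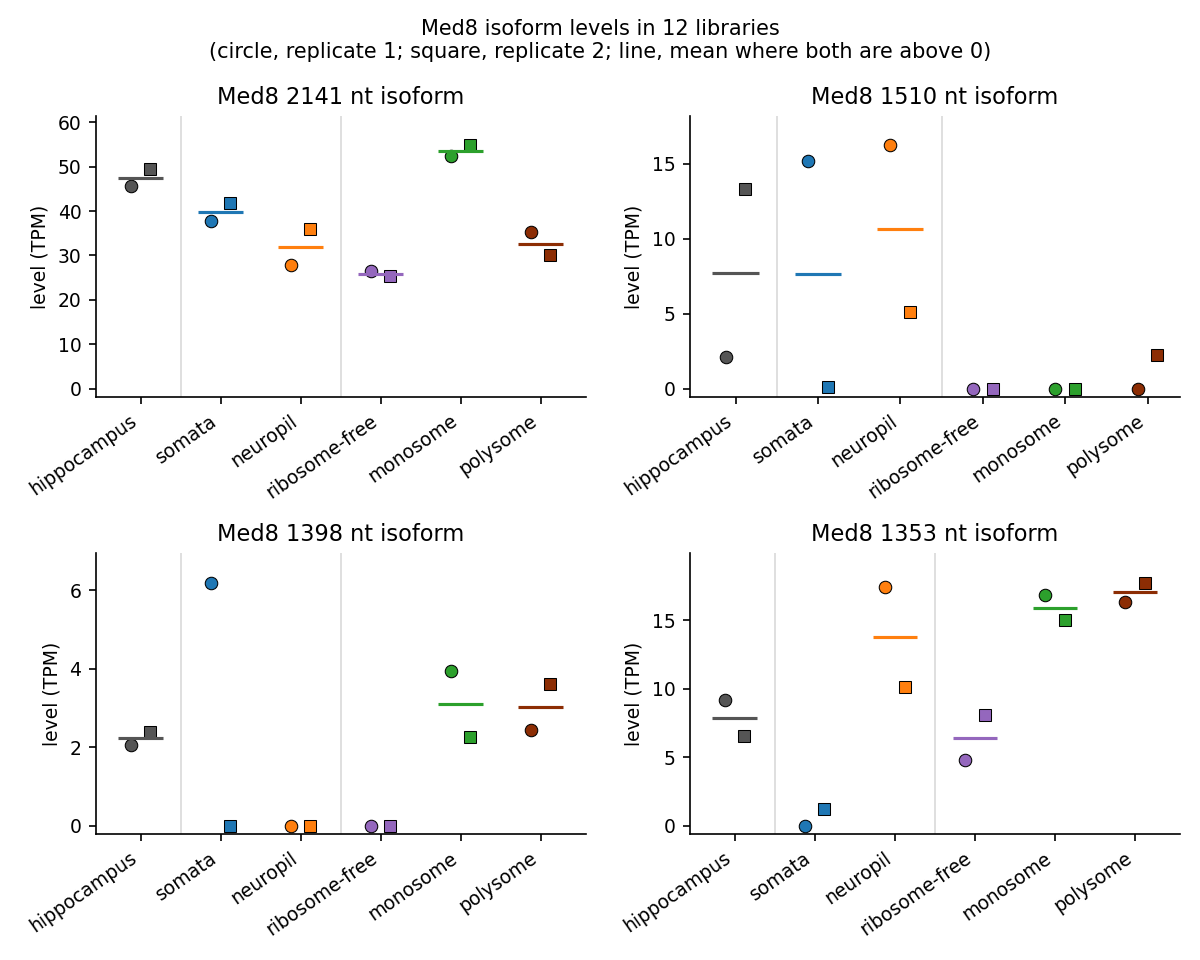
Level of each listed Med8 isoform in TPM (vertical axes, a separate scale per panel) in the 2 libraries of each of 6 groups, where circles are replicate 1, squares are replicate 2, a line marks the mean where both are above 0, and grey lines separate the 3 tables. Med8 2141 nt stays between 25.3 and 54.74 TPM, Med8 1353 nt is at 0 and 1.25 TPM in somata against 17.4 and 10.12 TPM in neuropil, and the replicates of Med8 1510 nt lie far apart in the 3 groups from hippocampus.

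Ordered by the mean of Med8 2141 nt, the brain fractions ran from monosomes at 53.5 ± 1.69 TPM (SD, n = 2) through polysomes at 32.7 ± 3.68 TPM to the ribosome-free fraction at 25.9 ± 0.88 TPM, with no overlap between neighbours. Somata, at 39.8 ± 2.76 TPM, lay above neuropil at 31.8 ± 5.69 TPM, with the lower somata library 37.85 and the higher neuropil library 35.86 TPM. Hippocampus was at 47.5 ± 2.68 TPM. For Med8 1353 nt the order was polysomes at 17.0 ± 1.01 TPM, monosomes at 15.9 ± 1.28 TPM and the ribosome-free fraction at 6.44 ± 2.35 TPM, and only the first 2 of these overlapped. Monosomes were thus highest for the 2141 nt isoform. For the 1353 nt isoform the polysome mean was above the monosome mean by less than the replicate spread. In replicate 1 its monosome value was the higher, 16.81 against 16.3 TPM, so its highest fraction was not settled.

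The sum of the 4 isoforms overlapped between the layers and did not overlap between the fractions. It was 58.95 and 71.62 TPM in hippocampus, 59.25 and 43.15 TPM in somata, and 61.45 and 51.11 TPM in neuropil. In brain it was 31.32 and 33.4 TPM in the ribosome-free fraction, 73.11 and 72 TPM in monosomes, and 54.02 and 53.64 TPM in polysomes. The 2 replicates of a fraction differed by 0.010 to 0.093 on the log2 scale, less than the gaps between the fractions. In the groups from hippocampus the replicates differed by 0.27 to 0.46. Fractions without overlap were common among single isoforms. Of 19667 isoforms, 51.7% were higher and 20.3% lower in polysomes than in ribosome-free RNA with no overlap. For monosomes against ribosome-free RNA these were 53.8% and 15.5%, and for polysomes against monosomes 32.1% and 35.2%. The median isoform stood above ribosome-free RNA by 0.63 in polysomes and 0.69 in monosomes on the log2(TPM + 1) scale.

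Med8 2141 nt made up between 45.3% and 96.8% of the summed listed isoforms. Its share was 77.3% and 68.9% in hippocampus, 63.9% and 96.8% in somata, and 45.3% and 70.2% in neuropil. The somata and neuropil shares overlapped, since somata replicate 1 was below neuropil replicate 2. Within each replicate number the neuropil share was the lower, although the labels do not say that a shared number marks a pair. In the fractions its share was 84.7% and 75.7% in ribosome-free RNA, 71.6% and 76.0% in monosomes, and 65.3% and 56.1% in polysomes. Both polysome libraries were below the other 4 brain libraries, and the ribosome-free and monosome shares overlapped.

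Most of what the 2141 nt isoform did not hold in brain went to Med8 1353 nt. Its share was 15.3% and 24.3% in ribosome-free RNA, 23.0% and 20.8% in monosomes, and 30.2% and 33.1% in polysomes. In the layers it was 0% and 2.90% in somata and 28.3% and 19.8% in neuropil, and in hippocampus it was 15.6% and 9.12%. The highest share of Med8 1510 nt was 26.4%, in neuropil replicate 1, with 25.7% in somata replicate 1 and 0.32% in somata replicate 2. Med8 1398 nt reached 10.4% in somata replicate 1 and at most 6.73% in the other 11 libraries.

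**Figure D2:**
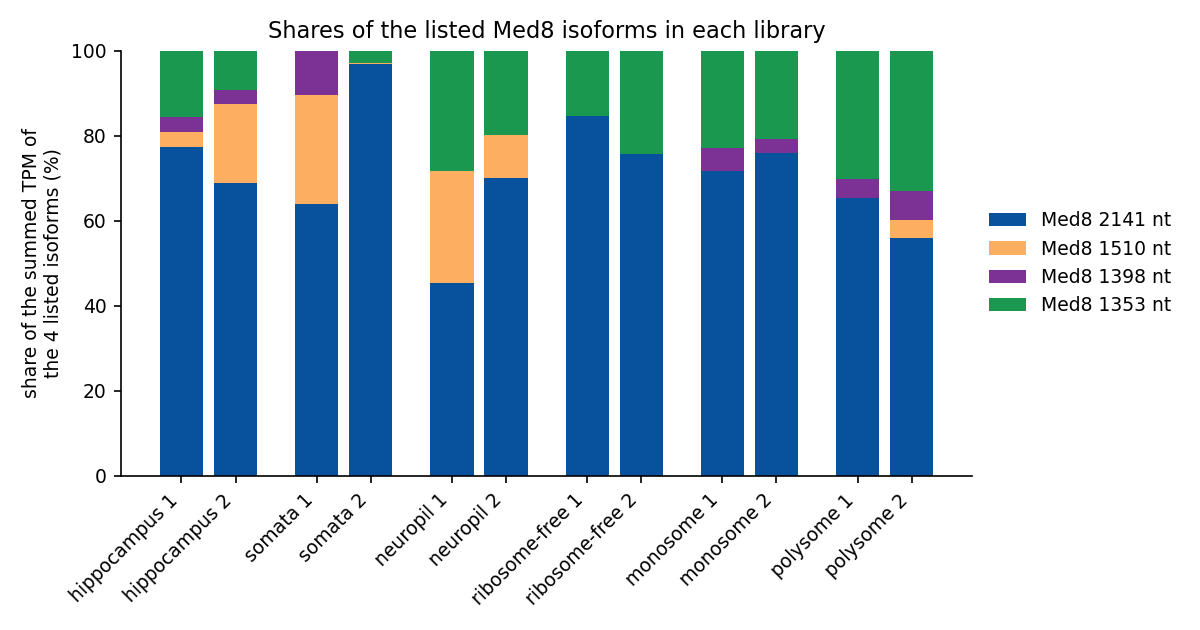
Share of each listed Med8 isoform in the summed TPM of the 4 isoforms (vertical axis, percent), as stacked bars for the 12 libraries named by group and replicate. The 2141 nt isoform fills 45.3% to 96.8% of a bar, and the 1353 nt isoform fills 28.3% and 19.8% in neuropil, 0% and 2.90% in somata, and more in both polysome libraries than in the other 4 brain libraries.

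The comparison of neuropil with somata asks which isoforms lie in the processes of neurons and which near their cell bodies. Med8 1353 nt was higher in neuropil by 3.25 on the log2(TPM + 1) scale (SE 0.75, 95% interval 1.21 to 5.30, n = 2 per layer), a difference above that of 99.3% of the 20393 isoforms tested. Its limma p was 0.0110 before and 0.221 after Benjamini-Hochberg adjustment over all isoforms tested, so it did not pass the threshold of 0.05. Its somata mean, 0.625 TPM, was under the filter of 1 TPM, so only its neuropil level brought it into the test. With somata at 0 and 1.25 TPM, the size of the difference depended on the value added to TPM before the log. It was 5.19 with 0.1 added and 1.72 with 5 added. With 1 somata library left out, the difference was 2.67 (without replicate 1) and 3.84 (without replicate 2). With 1 neuropil library left out, it was 2.89 (without replicate 1) and 3.62 (without replicate 2). For Med8 2141 nt the difference was -0.32 (SE 0.23, 95% interval -0.94 to 0.29, limma adjusted p = 0.602), with both neuropil libraries below both somata libraries. For Med8 1510 nt it was 1.26 (SE 1.49, 95% interval -2.80 to 5.32, limma adjusted p = 0.714), and the layers overlapped. Med8 1398 nt was listed at 0 in neuropil and in 1 of the somata libraries, so no fold is given. It passed the filter only through somata replicate 1, at 6.19 TPM, and its adjusted limma p was 0.646.

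Of the 4 isoforms, 0 had an adjusted limma p under 0.05 and 1, Med8 1353 nt, had an unadjusted p under 0.05. Over all isoforms 0% passed after adjustment and 14.8%, or 3024 isoforms, had an unadjusted p under 0.05. The smallest adjusted p of any isoform in this fit was 0.179. One Med8 isoform was higher in both neuropil libraries than in both somata libraries, against 22.8% of all isoforms, and 1 was lower in both, against 22.1%. The median difference over all isoforms was 0.01. In bulk tissue, fewer cells of a type and less RNA per cell cannot be told apart, and the layers differ in cell makeup as well as in the parts of neurons they hold.

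**Figure D3:**
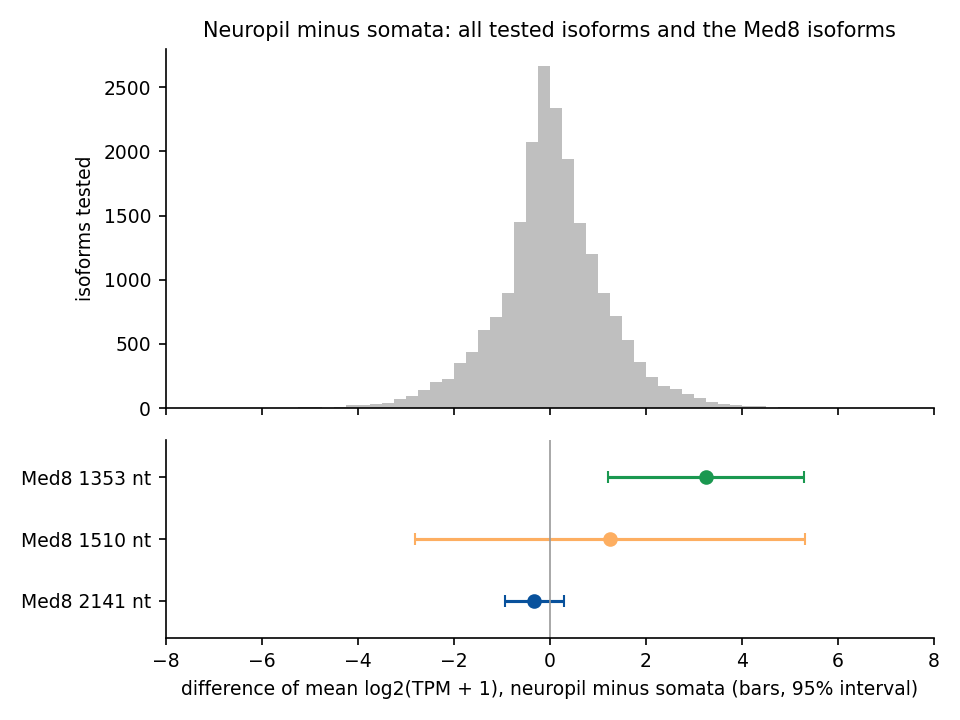
Upper panel, number of isoforms tested (vertical axis) by the difference of mean log2(TPM + 1) between neuropil and somata (horizontal axis, positive where neuropil is higher). Lower panel, the same difference for 3 Med8 isoforms with 95% intervals from limma, where Med8 1353 nt sits at 3.25 in the right tail and the intervals of Med8 1510 nt and Med8 2141 nt include 0. Med8 1398 nt is left out because it is listed at 0 in neuropil.

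As a share of the summed listed isoforms, Med8 1353 nt was 24.1% in neuropil and 1.45% in somata on average, a difference of 22.6 percentage points (two-sided exact permutation p = 0.333 over 2 against 2 libraries, the smallest this design allows). Med8 2141 nt made up 57.7% and 80.3%, a difference of -22.6 points (exact permutation p = 0.667). The share of Med8 1510 nt differed by 5.23 points (exact permutation p = 0.667) and that of Med8 1398 nt by -5.22 points (exact permutation p = 1). The summed level differed by 0.15 on the log2 scale (exact permutation p = 0.667). Over these 5 comparisons the adjusted p of the exact permutation tests was 0.833 for each but Med8 1398 nt, where it was 1. A test of this size cannot show a difference, and the ranges above carry the comparison.

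The listed isoforms were spread differently over the ribosome fractions. The sum of the 3 mean TPM of Med8 2141 nt was split as 23.1% in ribosome-free RNA, 47.8% in monosomes and 29.1% in polysomes. In replicate 1 alone the split was 23.2%, 45.9% and 30.9%, and in replicate 2 alone 23.0%, 49.7% and 27.3%. Med8 1353 nt was split as 16.4%, 40.4% and 43.2%. Its polysome portion was 43.0% in replicate 1 and 43.4% in replicate 2, while its ribosome-free portion was 12.6% and 19.8%. Med8 1398 nt was divided between monosomes, 50.6%, and polysomes, 49.4%, and its monosome portion was 61.7% in one replicate and 38.5% in the other. For the 4 isoforms summed, the split was 20.4%, 45.7% and 33.9%. Each library is scaled to the same total, so these splits compare TPM and do not give the amount of Med8 RNA in a fraction.

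The listed isoforms stood at higher TPM in polysomes than in ribosome-free RNA, a direction that turned for Med8 2141 nt when the libraries were scaled otherwise. Of the 3 isoforms whose mean over the 6 brain libraries reached 1 TPM, 3 were higher in both polysome libraries and 0 were lower, against 51.7% and 20.3% of 19667 isoforms. Med8 1510 nt was below that mean. Med8 1398 nt, listed at 0 in both ribosome-free libraries, reached it only through the ribosome-bound fractions. Its place among the 3 was thus partly set by that filter. The difference was 1.31 (SE 0.28) on the log2(TPM + 1) scale for Med8 1353 nt, above that of 69.1% of isoforms, and 0.32 (SE 0.14) for Med8 2141 nt, above that of 41.1%. The median over all isoforms was 0.63, so the difference of the 2141 nt isoform was smaller than that of the median isoform. With the libraries brought to a common distribution by quantile normalization, the median over all isoforms was 0.09, Med8 2141 nt was at -0.37 and Med8 1353 nt at 0.71, so the sign for the 2141 nt isoform depends on the scaling. These values helped to choose the isoforms and are given without a test.

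Between polysomes and monosomes, 0 listed isoforms were higher in both polysome libraries and 1, Med8 2141 nt, was lower, against 32.1% and 35.2% of all isoforms. Its difference was -0.70 (SE 0.14), with 27.3% of isoforms lower still. Med8 1353 nt was at 0.09 (SE 0.28) and Med8 1398 nt at -0.01 (SE 0.43), both overlapping between the fractions, and the median over all isoforms was -0.02. From ribosome-free RNA to monosomes, 3 listed isoforms were higher in both libraries and 0 were lower, against 53.8% and 15.5%. Med8 1353 nt differed by 1.22 (SE 0.28) and Med8 2141 nt by 1.02 (SE 0.14), with a median over all isoforms of 0.69. After quantile normalization these differences were 0.62 and 0.48 and the median 0.07, and with median ratio scaling 0.58 and 0.33 with a median of 0.11. Med8 1398 nt, listed at 0 in both ribosome-free libraries, has no fold in either comparison with that fraction. Since it passed the filter only through the ribosome-bound fractions, its place among the 3 higher in monosomes was partly set by that filter.

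The ratio of Med8 1353 nt to Med8 2141 nt within a library is unchanged when all levels of a library are multiplied by one factor, although quantile normalization can change it. It was 0.180 and 0.320 in ribosome-free RNA, 0.321 and 0.274 in monosomes, and 0.462 and 0.590 in polysomes. Both polysome ratios were above the other 4, and the ribosome-free and monosome ratios overlapped. In hippocampus the ratio was 0.201 and 0.132, in somata 0 and 0.0299, and in neuropil 0.625 and 0.282. Both neuropil ratios were above both somata ratios, and neuropil replicate 1 was the highest of the 12 libraries.

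**Figure D4:**
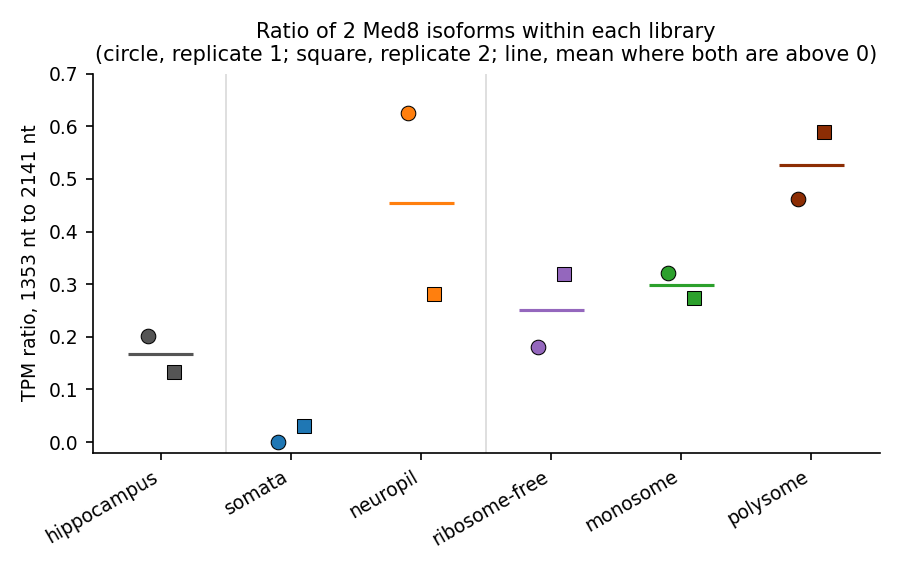
TPM of Med8 1353 nt divided by that of Med8 2141 nt in the same library (vertical axis, no unit) for the 2 libraries of each of 6 groups, where circles are replicate 1, squares are replicate 2 and a line marks the mean where both are above 0. The ratio is 0 and 0.0299 in somata against 0.625 and 0.282 in neuropil, and 0.462 and 0.590 in polysomes against 0.180 to 0.321 in the other 4 brain libraries.

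The same list holds at least 2 isoforms for 5 other genes, which show how far isoforms of one gene part within these data. Between neuropil and somata the Med8 isoforms spanned a range of 3.58 on the log2(TPM + 1) scale, over the 3 isoforms with a value. The 2 isoforms of LOC301124 were 0.71 apart, those of Poldip2 0.39, those of Tymp 0.16 and those of Rpp14 0.12, and Nt5dc1 had a value for 1 isoform. Between polysomes and ribosome-free RNA the Med8 range was 0.99 over 2 isoforms, against 3.96 for Tymp, 1.003 for Poldip2 and 0.26 to 0.33 for the other 3 genes. Between polysomes and monosomes it was 0.79 over 3 isoforms, against 0.28 to 0.74 for the 5 genes. Between monosomes and ribosome-free RNA the Med8 range was 0.20 over 2 isoforms, below the 3.22 of Tymp, 0.76 of Nt5dc1 and 0.71 of Poldip2 and above the 0.12 of Rpp14 and 0.011 of LOC301124. Both Tymp ranges against ribosome-free RNA rest on 1 isoform that averaged 0.115 TPM there, a value near the floor. Med8 1398 nt, listed at 0 in that fraction, was left out of the Med8 ranges against it. Med8 had more isoforms with a value than the other genes between the layers and between polysomes and monosomes, a range grows with the number of isoforms, and the differences between genes were not tested.

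Among 414 isoforms that the study pairs with a gene name, the ones whose levels ran most nearly parallel to each Med8 isoform were found by Pearson's r of log2(TPM + 1), centred within each table, over the 10 libraries of the layers and fractions. For Med8 1353 nt these were an isoform of Gsn, which encodes the actin-severing protein gelsolin (5534 nt, r = 0.934), and an isoform of Lgi4, which encodes a secreted protein of the LGI family (2541 nt, r = 0.925). The Gsn isoform averaged 9.56 TPM in somata and 41.8 TPM in neuropil, and the Lgi4 isoform 0.785 and 9.07 TPM. In ribosome-free RNA, monosomes and polysomes the Gsn isoform averaged 7.41, 21.6 and 24.9 TPM. The Lgi4 isoform was nearly level there, at 3.445, 3.375 and 4 TPM, whereas Med8 1353 nt was at 6.44, 15.9 and 17.0 TPM. For Med8 2141 nt they were an isoform of RGD1306941 (2918 nt, r = 0.962) and one of Myg1, which encodes an exonuclease (2404 nt, r = 0.956). For Med8 1398 nt they were an isoform of Lamp5, which encodes a membrane protein of the LAMP family found in brain (1451 nt, r = 0.927), and one assigned to Pgam5 and Pxmp2 (2420 nt, r = 0.901). Both of these were listed at 0 in both neuropil libraries, as Med8 1398 nt was. In ribosome-free RNA, where Med8 1398 nt was listed at 0, they averaged 17.0 and 2.24 TPM. The Lamp5 isoform also rose from 40.9 TPM in monosomes to 93.4 TPM in polysomes, unlike Med8 1398 nt. Med8 1510 nt had a mean under 1 TPM in the fractions and was not compared. The points share their libraries, and the highest of 414 values is high by choice, so these are descriptions with no test.

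Other subunits of Mediator would show whether the complex as a whole follows these patterns. Of 29 other Mediator genes looked for, 0 were among the 543 isoforms that the study's lists pair with a gene name, and their levels are not analysed here.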

How the data were processed

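RNA levels of 28268 full-length isoforms were analysed in 12 libraries, 2 for each of whole hippocampus, CA1 somata, CA1 neuropil and, from whole brain, ribosome-free RNA, monosomes and polysomes. Ribosome footprinting libraries, 6 in number, were not used here. The authors removed adapters with flexbar, mapped reads to their full-length transcripts with Bowtie 2 and deposited the TPM that RSEM estimated, with 2 decimals, in 3 tables that were treated as made separately. Their processing notes also name TopHat2 and the build rn6, and tool versions are not given in the sources used here. The stated RSEM arguments are for paired-end reads, although the hippocampus libraries are described as single-end. The fraction libraries are labelled as polyA RNA, whereas the methods name a total RNA kit. Groups were taken from the sample titles.

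The 4 Med8 isoforms were taken by identifier from the study's list. They, the lists and the tests were chosen with earlier results of these data known. The named isoforms were, by rule, all listed Med8 isoforms, the ranges of other genes with at least 2 listed isoforms, and per Med8 isoform the 2 named isoforms with the highest r.

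Neuropil was compared with somata in limma 3.58.1 under R 4.3.3 (lmFit and eBayes, its prior variance following the mean level) on log2(TPM + 1). The test was two-sided and covered the 20393 isoforms whose mean in the 4 libraries reached 1 TPM. P-values were adjusted by Benjamini-Hochberg, and the threshold was 0.05. A log2 difference on this scale understates the change of low isoforms. One fit over the 6 fraction libraries and 19667 isoforms gave differences and standard errors alone. Shares were compared by exact permutation tests in scipy 1.17.1 under Python 3.11.15, with numpy 2.4.6, pandas 2.3.3 and matplotlib 3.10.9. The limma step was tested on simulated data. Alternatives changed the pseudocount, the filter, the scaling, the prior variance, the replicate term and the libraries left out. Isoform sequences and coordinates are not given here.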

Additional observations from a re-analysis of the deposited data

How the results depend on the processing

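The number of listed Med8 isoforms past the adjusted threshold between neuropil and somata was 0 in limma under all 12 alternatives. The difference of Med8 1353 nt ranged from 1.72 to 5.19 on the log2 scale (adjusted p from 0.210 to 0.468) and that of Med8 2141 nt from -0.50 to -0.15 (adjusted p from 0.239 to 0.777). The lowest value of Med8 1353 nt came with 5 added to TPM and the highest with 0.1 added. For Med8 1510 nt the difference ranged from -0.66, without somata replicate 2, to 3.17, without somata replicate 1. With 1 library left in a layer, that library is assumed to vary like the other layer. Same-numbered libraries did not deviate together (correlation 0.033 for neuropil and somata, and -0.01 to 0.003 for pairs of fractions), and the labels do not say what a shared number stands for, so the main comparison was not paired. With the replicate number as a block, 0 listed isoforms were called and the adjusted limma p of Med8 1353 nt was 0.324.

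Scaling of the fractions mattered for Med8 2141 nt and Med8 1353 nt. The difference of Med8 2141 nt between polysomes and ribosome-free RNA, 0.32 as deposited, was -0.37 after quantile normalization and -0.33 with median ratio scaling. That of Med8 1353 nt, 1.31 as deposited, was 0.71 under either. It was 0.98 without ribosome-free replicate 1 and 1.64 without ribosome-free replicate 2. Under median ratio scaling the split of Med8 2141 nt over ribosome-free RNA, monosomes and polysomes was 32.7%, 41.3% and 26.0%. For Med8 1353 nt the split under that scaling was 23.8%, 36.2% and 40.0%. The count of listed isoforms higher in polysomes than in monosomes, 0 as deposited, was 1 under that scaling and 0 to 2 with single libraries left out, 2 without monosome replicate 1 and 1 without polysome replicate 1. With Med8 1510 nt left out of the sum, the share of Med8 2141 nt was 82.4% in hippocampus, 91.5% in somata and 69.8% in neuropil, and that of Med8 1353 nt in neuropil was 30.2%. Med8 1398 nt fell below the filter without somata replicate 1 and at a mean of at least 5 TPM. What depth limits is unknown, since TPM keep no counts.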
